A study of Mus musculus with 18 samples.

Results

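The comparison concerned the interval between 4 h and 10 h of dexamethasone treatment in mouse bone marrow derived macrophages, which are cells grown out of marrow with the growth factor CSF1. Its members were the 6 arrays titled for these times, 3 at 10 h and 3 at 4 h, out of 18 arrays in the series. Both groups were cells from male C57BL/6 mice aged 10 weeks, given 100 nM dexamethasone, a synthetic glucocorticoid, for 10 h or for 4 h. Marrow from 3 mice had been grown for 1 week in medium that held fetal calf serum (10%) and human CSF1 made as a recombinant protein (10000 U/ml). The cells were replated in both, so serum and CSF1 were present at each time. The labels call the samples biological replicates but tie no array to a mouse, and p-values measure only the spread between these arrays. The other arrays were baseline cells and cells at 1, 2 and 24 h, 3 each. With no untreated cells taken at 4 h or 10 h among these groups, the effect of further dexamethasone and that of further time after replating cannot be told apart.

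Dexamethasone enters the cell and binds the glucocorticoid receptor, a transcription factor that moves to the nucleus, activates genes through response elements in DNA and holds back genes driven by NF-kappaB and AP-1. Direct targets respond early, and their products can then change further genes, so the genes that move at later times include indirect ones. In macrophages glucocorticoids are known for lowering inflammatory cytokines and for raising receptors for haemoglobin complexes, apoptotic cells and other debris.

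All 8 macrophage markers, among them Csf1r, Adgre1 and Cd68, lay above the background level of the control probe sets, 3.86 on the log2 scale. Their summed intensity was 22992 to 24372 at 10 h and 23573 to 24593 at 4 h (exact permutation test, two-sided, p = 0.7). None of 6 natural killer cell markers was above background, and 1 of 6 B cell, 3 of 6 T cell and 1 of 7 stromal cell markers were. The 6 mast cell and basophil markers on the array summed to 70.6 to 77.8 at 10 h and 89.9 to 116 at 4 h. Of these, 1, Kit, was above background by its mean over the 6 arrays, and Cpa3 was not. Their exact permutation p was 0.1, the smallest that 3 against 3 arrays can give. The T cell markers also reached 0.1, with sums of 122 to 133 at 10 h and 138 to 145 at 4 h, and the other 8 lists of non-macrophage markers gave exact permutation p of 0.2 to 0.8. RNA quality was read as the log2 signal at the 3′ end minus that at the 5′ end in control probe sets. For Gapdh this difference was 0.20 ± 0.09 log2 at 10 h and 0.19 ± 0.02 log2 at 4 h (SD, n = 3 each; exact permutation p = 1.0). For Actb it was 0.42 ± 0.02 log2 at 10 h and 0.42 ± 0.03 log2 at 4 h (exact permutation p = 0.9). Between 73.3% and 74.4% of tested genes lay above background on these 6 arrays.

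Of 13190 tested genes, 551 differed between 10 h and 4 h, which is 4.18% (limma, Benjamini-Hochberg adjusted p under 0.05). Higher levels at 10 h were found for 310 genes, or 2.35% of those tested, and lower levels for 241, or 1.83%. The counts of every gene list described below are to be read beside these shares. The median change of all tested genes was 0.001 log2. Changed genes had moved by a median of 0.36 log2 upward and 0.37 log2 downward, and only 15 rises and 10 falls reached 1 log2 unit. In 301 of the 310 rises and 238 of the 241 falls the 3 arrays at 10 h all lay on one side of the 3 arrays at 4 h, as did 18.9% of all tested genes. A test against a fold of 1.2 with limma's treat passed 60 genes, 36 higher and 24 lower. Of the 98 genes named by rule that passed, 55 also passed under every setting tried other than that test against a fold. When the prior of the variance did not follow intensity, 35 of the 98 lost their call, and 24 did when only the 6 arrays were fitted. Leaving out 4 h replicate 1 gave 316 changed genes, and leaving out 4 h replicate 2 gave 334. In bulk arrays a lower signal can come from fewer cells that carry a transcript or from less of it per cell, and these cannot be told apart.

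**Figure D1:**
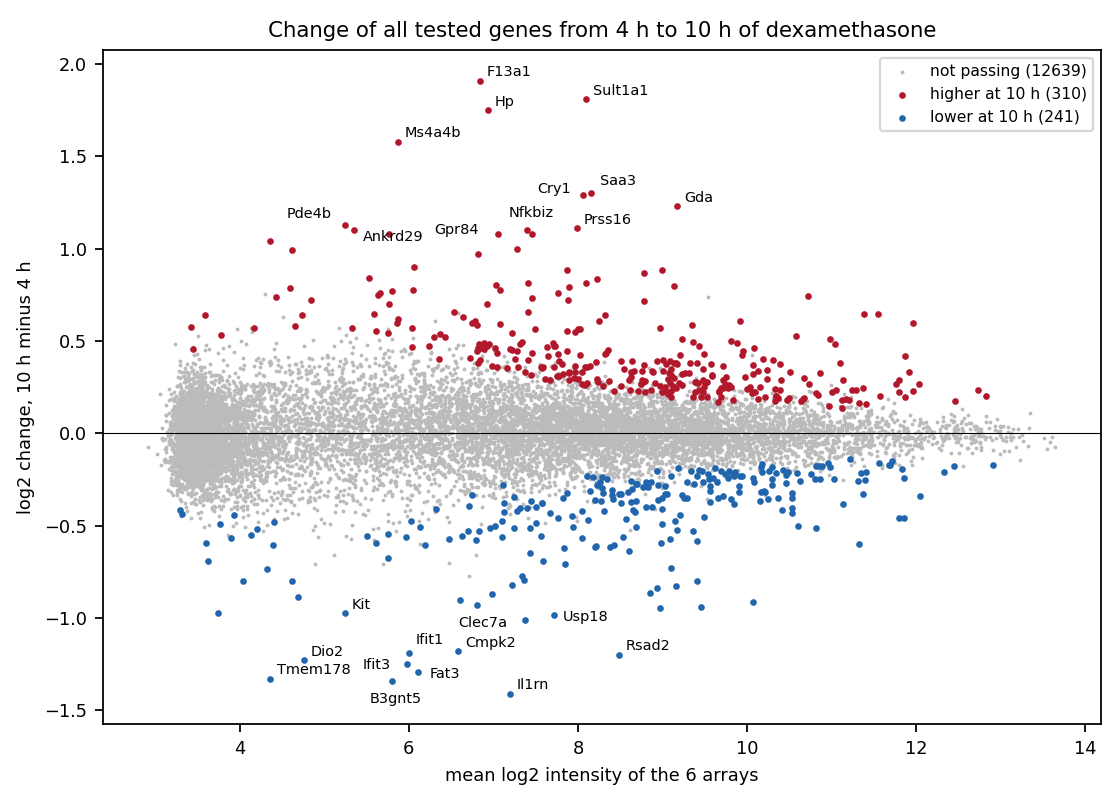
Each point is 1 of 13190 genes, with its mean log2 intensity over the 6 arrays on the x axis and its log2 change at 10 h minus 4 h on the y axis; red points are the 310 genes higher at 10 h and blue points the 241 genes lower at 10 h (adjusted p under 0.05). The named points are the 12 largest rises and 12 largest falls, from F13a1 at 1.91 to Il1rn at -1.41.

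The largest rise was that of F13a1, the catalytic subunit of coagulation factor XIII, which cross-links fibrin. It had 240.2, 193 and 240.3 intensity units at 10 h, against 67.6, 57.6 and 53.6 at 4 h. The arrays did not overlap, and the change was 1.91 ± 0.13 (adjusted p = 9.45e-10) on the log2 scale, a fold of 3.76. Sult1a1, which encodes a sulfotransferase for phenolic compounds, had 419.6, 491 and 655 units at 10 h, against 121, 158 and 165 at 4 h, a change of 1.81 ± 0.15 (adjusted p = 2.69e-08). Hp encodes haptoglobin, the plasma protein that binds free haemoglobin. It had 170.5, 242 and 275 units at 10 h, against 65.1, 53.2 and 86.4 at 4 h, and its change was 1.75 ± 0.19 (adjusted p = 1.7e-06). For the acute phase protein gene Saa3, made in macrophages at sites of inflammation, the arrays read 485, 413 and 446 units at 10 h, against 206, 162 and 180.3 at 4 h. Its change was 1.30 ± 0.11 (adjusted p = 2.69e-08), and at 2 h it had stood at -0.06 ± 0.11 against baseline (adjusted p = 0.937). At 24 h, in arrays the comparison of 10 h with 4 h did not use, Saa3 was 3.28 ± 0.11 above baseline and F13a1 5.44 ± 0.13 above it.

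Among the other large rises were the enzyme genes Gda, Pde4b and Prss16. Gda, the guanine deaminase of purine breakdown, gave 872, 856 and 935 units at 10 h, against 327, 400.0 and 413 at 4 h, a change of 1.23 ± 0.10 (adjusted p = 1.06e-08), and its 2 other probe sets read 1.17 and 1.38 log2. Pde4b, a phosphodiesterase that breaks down cyclic AMP, gave 49.1, 50.3 and 71.2 units at 10 h, against 22.6, 36.1 and 20.6 at 4 h, a change of 1.13 ± 0.19 (adjusted p = 0.000562). Both genes had all 10 h arrays above all 4 h arrays. Prss16, a serine protease gene best known from the thymus, rose by 1.11 ± 0.16 (adjusted p = 6.64e-05), and Ankrd29, an ankyrin repeat gene, by 1.10 ± 0.18 (adjusted p = 0.000307). Of genes named as passing members of the gene lists, Cbr2, a carbonyl reductase, rose by 0.81 ± 0.15 (adjusted p = 0.0013), Apoc2, the apolipoprotein that activates lipoprotein lipase, by 0.81 ± 0.11 (adjusted p = 6.29e-05) and Gpx3, the secreted glutathione peroxidase, by 0.78 ± 0.15 (adjusted p = 0.00184). P2ry12, a receptor for ADP, had 98.8, 106 and 73.3 units at 10 h, against 48.5, 50.7 and 47.6 at 4 h, a change of 0.90 ± 0.20 (adjusted p = 0.00873).

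**Figure D2:**
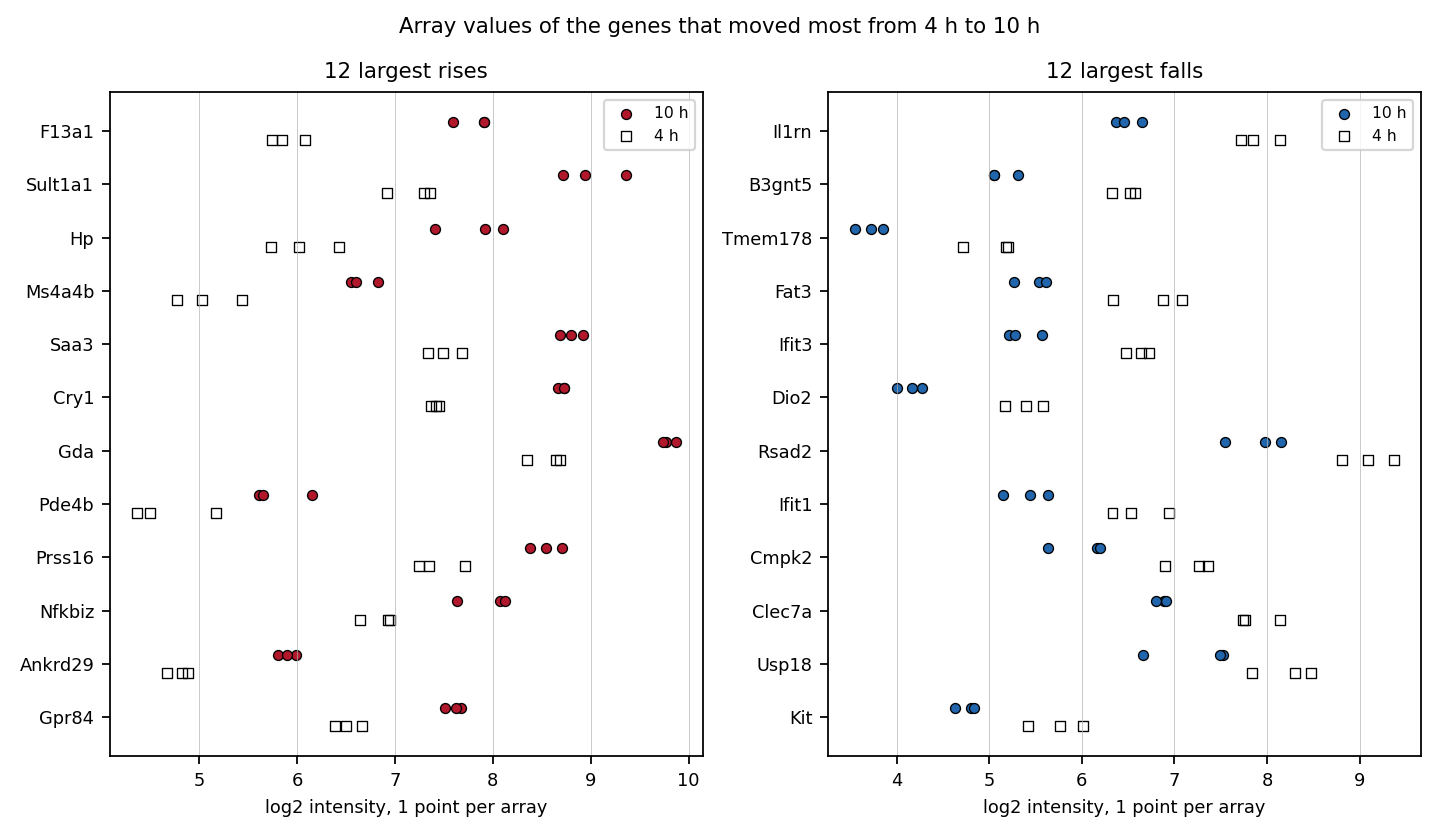
Log2 intensity (x axis) of the 12 largest rises (left) and the 12 largest falls (right), with 1 point per array, filled circles for 10 h drawn above open squares for 4 h. The genes were chosen among those whose times do not overlap, so the separation of the arrays is fixed by the choice, with F13a1 at 193 to 240.3 units against 53.6 to 67.6 units on the linear scale.

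The largest fall was that of Il1rn, which encodes the antagonist that blocks the interleukin 1 receptor. It had 82.4, 100.2 and 87.9 intensity units at 10 h, against 230.0, 281 and 209.9 at 4 h, a change of -1.41 ± 0.17 (adjusted p = 5.02e-06), and its 2 other probe sets also fell, at -1.23 and -0.92 log2. Clec7a, the receptor dectin-1 for fungal glucans, had 118, 119.9 and 112 units at 10 h, against 217, 281 and 214 at 4 h, a change of -1.01 ± 0.10 (adjusted p = 5.97e-07). The 10 h arrays of both genes lay below all 4 h arrays, and neither gene had differed from baseline at 2 h (adjusted p = 0.967 and 0.64). At 24 h Il1rn was at -2.08 ± 0.17 and Clec7a at -2.11 ± 0.10 log2 against baseline. Fat3, an atypical cadherin, had 46.6, 48.8 and 38.4 units at 10 h, against 117, 135 and 80.6 at 4 h, a change of -1.29 ± 0.20 (adjusted p = 0.00018). Kit, the receptor for stem cell factor, had 27.9, 24.8 and 28.6 units at 10 h, against 54.4, 42.8 and 64.4 at 4 h, a change of -0.97 ± 0.16 (adjusted p = 0.000307). Kit is also the 1 mast cell and basophil marker above background, while Cpa3, Mcpt4, Mcpt8, Fcer1a and Tpsb2 were not above it by their means over the 6 arrays.

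For 2 of the large falls the probe sets set a limit. Tmem178, a membrane protein gene, had 13.2, 11.7 and 14.4 units at 10 h, against 36.3, 26.3 and 36.7 at 4 h. All 3 arrays at 10 h lay below the background level, so the gene was at least 2.26-fold lower at 10 h (mean 3.70 log2 at 10 h and 5.03 log2 at 4 h; adjusted p = 0.000516), with the background level taken for the 10 h arrays. Dio2, the deiodinase that activates thyroid hormone, had 19.4, 17.9 and 16.1 units at 10 h, against 48.0, 36.0 and 42.1 at 4 h, a change of -1.23 ± 0.18 (adjusted p = 9.69e-05). Its 2 other probe sets read -0.05 and 0.04 log2, and the mean of all its probe sets did not pass. Among all 551 changed genes 5 rises had a 4 h mean, and 11 falls a 10 h mean, below background. Of the 467 other probe sets carried by 285 changed genes, 388 (83.1%) moved in the same direction as the probe set tested.

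Among interferon-stimulated genes all calls were falls. These are mostly antiviral genes that cells switch on in response to interferons. Of 41 tested, 0 rose and 8 fell, and 37 of the 41 had a change below 0, with a median of -0.21 log2 beside 0.001 for all tested genes and falls in 1.83% of them. Without 10 h replicate 1 or without 4 h replicate 2 the count of falls was 4, over the other arrays left out in turn it reached 10, and without an intensity trend in the variance prior it was also 4. Ifit3, one of the Ifit proteins that bind viral RNA, had 37.1, 38.8 and 47.5 intensity units at 10 h, against 105, 99.3 and 88.9 at 4 h, a change of -1.25 ± 0.26 (adjusted p = 0.00448). Its relative Ifit1 had 35.6, 43.5 and 49.5 units at 10 h, against 92.7, 123 and 80.5 at 4 h, a change of -1.19 ± 0.21 (adjusted p = 0.00108). Rsad2, the antiviral enzyme viperin, had 187, 285 and 252 units at 10 h, against 546, 661 and 449.9 at 4 h, a change of -1.20 ± 0.19 (adjusted p = 0.000323), and its 2 other probe sets read -1.34 and -1.31 log2. No array at 10 h overlapped those at 4 h in these 3 genes, and 10 h replicate 1 was the lowest in each.

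Cmpk2, a nucleotide kinase gene that neighbours Rsad2 on chromosome 12, had 49.7, 71.9 and 73.3 units at 10 h, against 154, 164 and 119 at 4 h, a change of -1.18 ± 0.22 (adjusted p = 0.00187), while its other probe set read -0.13 log2. Usp18, the protease that removes ISG15 from proteins, had 101, 184 and 179 units at 10 h, against 316, 356 and 229 at 4 h, a change of -0.98 ± 0.22 (adjusted p = 0.00846), and its call was lost without 10 h replicate 1 and without 4 h replicate 2. In these 2 genes 10 h replicate 1 was again the lowest array and 4 h replicate 2 the highest. The other 3 falls, named after their values were seen, were Ifit2 at -0.87, the receptor transporter gene Rtp4 at -0.80 and the apoptosis factor Xaf1 at -0.61 log2. Several classical members did not pass: Oasl2 was at -0.77, the master regulator Irf7 at -0.44, Mx1 at -0.23, Irf1 at 0.01 and Cxcl10 at 0.03 log2, also named after their values were seen. Replicates of these genes differed widely at baseline, where Ifit3 had 6.61 ± 0.57 log2 and Rsad2 9.23 ± 0.40 log2 (SD, n = 3). At 24 h against baseline Ifit3 stood at -0.82 ± 0.26 (adjusted p = 0.0383), Ifit1 at -0.95 ± 0.21 (adjusted p = 0.0029) and Rsad2 at -0.56 ± 0.19 (adjusted p = 0.058).

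The promoters of Ifit1, Ifit3 and Rsad2 are printed because they carry, in capitals, the letters TTTCNNTTT, a short form of the interferon-stimulated response element, or their reverse complement. Windows run from 250 bases before to 50 bases after the gene's start, in the gene's own direction, from RefSeq on GRCm38.p6. The Ifit1 window is chr19:34640639-34640938, plus strand, the Ifit3 window chr19:34583279-34583578, plus strand and the Rsad2 window chr12:26456403-26456702, minus strand.
Ifit1: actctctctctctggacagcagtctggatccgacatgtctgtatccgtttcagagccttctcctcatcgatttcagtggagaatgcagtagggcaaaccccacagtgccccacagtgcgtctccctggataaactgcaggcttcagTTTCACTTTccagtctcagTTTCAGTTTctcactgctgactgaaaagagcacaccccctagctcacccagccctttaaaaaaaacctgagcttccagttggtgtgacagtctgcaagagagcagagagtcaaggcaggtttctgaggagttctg
Ifit3: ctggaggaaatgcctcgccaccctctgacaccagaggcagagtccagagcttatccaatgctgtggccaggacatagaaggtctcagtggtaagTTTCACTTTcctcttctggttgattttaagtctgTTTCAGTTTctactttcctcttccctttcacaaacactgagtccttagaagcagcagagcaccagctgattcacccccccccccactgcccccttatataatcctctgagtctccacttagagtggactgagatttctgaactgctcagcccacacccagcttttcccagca
Rsad2: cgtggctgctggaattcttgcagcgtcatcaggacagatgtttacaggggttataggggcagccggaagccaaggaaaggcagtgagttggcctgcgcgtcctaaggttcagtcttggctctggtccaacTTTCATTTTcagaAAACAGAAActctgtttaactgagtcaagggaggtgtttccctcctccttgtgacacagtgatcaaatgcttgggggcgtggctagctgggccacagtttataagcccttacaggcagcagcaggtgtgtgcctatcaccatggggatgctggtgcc
Each window holds 2 matches, at -104 and -85 from the start in Ifit1, at -156 and -122 in Ifit3 and at -120 and -107 in Rsad2, where the second match is on the other strand. Searched on both strands, the letters occurred in 4 of the 6 fallen interferon-stimulated genes with a window, in 19 of 29 tested members of the list with one (65.5%), and in 9.65% of 10574 tested genes. Members that fell and members that did not pass thus both hold it, and a match is a description of the letters, not of binding.

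Among NF-kappaB components and feedback genes all calls were rises. NF-kappaB drives inflammatory genes, and many of its targets encode its own inhibitors. Of 18 tested genes 6 rose and 0 fell, and 17 had a change above 0, beside 2.35% risen and 50.5% above 0 among all tested genes, with a median of 0.23 log2. Without 4 h replicate 1 the count of rises was 2, as it was without an intensity trend. It was 3 with only the 6 arrays fitted, and up to 7 without other arrays. Nfkbiz, a nuclear inhibitor family member that also activates secondary response genes, had 198, 270.4 and 279.9 intensity units at 10 h, against 100.2, 124 and 122 at 4 h, a change of 1.10 ± 0.16 (adjusted p = 6.37e-05), with its 2 other probe sets at -0.05 and 0.80 log2. Nfkbie, which encodes the inhibitor IkappaB epsilon, had 223, 260.2 and 291 units at 10 h, against 117, 138 and 111 at 4 h, a change of 1.08 ± 0.12 (adjusted p = 4.02e-06). The arrays of both genes did not overlap between the times. Birc3, a ubiquitin ligase of the TNF receptor pathway, rose by 0.29 ± 0.07 (adjusted p = 0.00973), a call lost without 10 h replicate 1 and without 4 h replicate 1. Tnfaip3, the deubiquitinase A20 that ends NF-kappaB signalling, rose by 0.43 ± 0.11 (adjusted p = 0.0211) with overlapping arrays, and its call was lost without any of 10 h replicates 1 and 2 and 4 h replicates 1 and 3. The means of Birc3 and Tnfaip3 were not lower at 4 h (9.57 and 9.28 log2) than at baseline (9.04 and 9.22 log2). The remaining rises, named after their values were seen, were Nfkbia at 0.22 and Tnip1 at 0.23 log2.

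Nfkbie is shown as an example of these promoters because its change was large and did not lose its call under any setting tried. In its window on GRCm38.p6, chr17:45555450-45555749, plus strand, capitals mark the letters GGGNNTTCC, a short form of the NF-kappaB site, at -105 from the start.
Nfkbie: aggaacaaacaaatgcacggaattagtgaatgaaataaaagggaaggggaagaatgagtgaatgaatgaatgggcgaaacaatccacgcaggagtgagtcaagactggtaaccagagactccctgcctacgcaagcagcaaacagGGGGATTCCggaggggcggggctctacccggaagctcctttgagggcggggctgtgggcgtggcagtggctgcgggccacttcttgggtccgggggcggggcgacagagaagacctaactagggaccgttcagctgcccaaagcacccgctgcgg
On both strands these letters occurred in 3 of the 5 risen NF-kappaB genes with a window (Nfkbie, Tnfaip3 and Tnip1) and in 8.28% of all tested genes. They were in 10.7% of all risen and 5.76% of all fallen genes with a window. The windows of Nfkbia and Birc3 held no match, which says only that this short form is not in them. Other forms of the site were not searched. The core of the glucocorticoid response element, ACANNNTGT, occurred in 9.54% of risen, 4.19% of fallen and 5.63% of all tested genes with a window, and in none of the risen NF-kappaB genes.

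Several genes that were below baseline at 2 h of dexamethasone were higher at 10 h than at 4 h, inflammatory genes among them. Tnf, the cytokine TNF, had 144, 174 and 158 intensity units at 10 h, against 74.4, 83.4 and 84.5 at 4 h, a change of 0.97 ± 0.10 (adjusted p = 8.23e-07). Ets2, a transcription factor of the ETS family, had 570.5, 608 and 609.5 units at 10 h, against 293, 372 and 317 at 4 h, a change of 0.87 ± 0.08 (adjusted p = 1.8e-07). Ier3, an immediate-early gene linked to cell survival, had 301, 416 and 375 units at 10 h, against 176, 229.6 and 215 at 4 h, a change of 0.81 ± 0.10 (adjusted p = 2e-05). Gpr84, a receptor for medium-chain fatty acids, had 182, 205 and 198 units at 10 h, against 84.0, 102 and 90.6 at 4 h, a change of 1.08 ± 0.10 (adjusted p = 1.8e-07). The 10 h arrays of all 4 genes lay above all 4 h arrays. They were the 4 largest of 12 rises that were lower than baseline at 2 h, where Tnf stood at -1.41 ± 0.10, Ier3 at -0.95 ± 0.10, Gpr84 at -0.49 ± 0.10 and Ets2 at -0.45 ± 0.08 log2. At 24 h against baseline, Tnf was still lower at -0.70 ± 0.10 (adjusted p = 1.77e-05). The other 3 did not pass there, with Ier3 at 0.14 ± 0.10, Gpr84 at -0.23 ± 0.10 and Ets2 at -0.24 ± 0.08 log2.

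Among 27 tested inflammatory cytokines and chemokines 4 rose and 2 fell, with a median of 0.07 log2, and the rises numbered 2 without 4 h replicate 1 and 1 without an intensity trend. Cxcl2, a chemokine for neutrophils, had 275, 542 and 427 units at 10 h, against 167, 304 and 219 at 4 h. Its arrays overlapped, and the change of 0.84 ± 0.22 (adjusted p = 0.03) was not called without 10 h replicates 2 or 3 or 4 h replicates 1 or 3. Cxcl16, a membrane-bound chemokine and scavenger receptor, fell by 0.43 ± 0.06 (adjusted p = 0.000144). Cxcl14 fell by 0.73 ± 0.18 (adjusted p = 0.0153), a call lost without 10 h replicate 2 and without 4 h replicate 2. The call of Cxcl14 was also lost with the mean of its probe sets. Its mean at 10 h, 3.96 log2, lay close to the background level of 3.86, which limits the size of the fall. Tlr2, the receptor for bacterial lipoproteins, had 672, 705 and 698 units at 10 h, against 339.7, 401 and 388 at 4 h. Its change of 0.88 ± 0.08 (adjusted p = 8.38e-08) was the only call among 19 genes of Toll-like receptor signalling, whose median was 0.05 log2. Of 14 chemokine and chemoattractant receptors 2 rose and 0 fell, with a median of 0.28 log2. Ccr1 had 429, 383 and 390.2 units at 10 h, against 252, 292 and 231 at 4 h, a change of 0.64 ± 0.09 (adjusted p = 3.48e-05), and Cx3cr1, the fractalkine receptor, rose by 0.52 ± 0.14 (adjusted p = 0.028), a call lost without 10 h replicates 1 or 3 or 4 h replicates 1 or 2.

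In the interleukin 1 system 4 of 17 tested genes rose and 1, Il1rn, fell, with a median of 0.17 log2. All 4 rises were lost without 4 h replicate 1, whereas the fall of Il1rn passed under every setting tried. Il1rap, the accessory chain of the interleukin 1 receptor, had 69.2, 71.7 and 76.9 units at 10 h, against 46.5, 44.5 and 51.1 at 4 h, a change of 0.62 ± 0.14 (adjusted p = 0.012). Irak3, which restrains signalling from that receptor, had 168, 150.0 and 142 units at 10 h, against 101, 119 and 114 at 4 h, a change of 0.46 ± 0.10 (adjusted p = 0.00587). In both genes the 10 h arrays lay above the 4 h arrays, and the call of Il1rap was also lost without 10 h replicate 3 and without 4 h replicate 2. That of Irak3 was also lost with the probe set of largest variance and with the mean of its probe sets. Its lowest change over the settings tried was 0.16 log2. Il18, named after its value was seen, was at 0.45 log2, and both means of Mefv, the pyrin gene, lay below background, so no fold is given for it.

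Where the genes stood at other times was read from arrays outside the comparison, with the spread estimate shared. Of the 310 genes that rose, 180 (58.1%) were higher at 24 h than at baseline, beside 7.38% of all tested genes, 13 were lower and 117 were not called. Of the 241 that fell, 135 (56.0%) were lower at 24 h than at baseline, beside 5.34% of all tested genes, 21 were higher and 85 were not called. At 2 h against baseline 21 of the rises were higher, and 12 (3.87%) were lower, beside 0.576% of all tested genes. Of the falls 34 (14.1%) were higher at 2 h, beside 1.57% of all tested genes, and 1 was lower. All 21 rises already higher at 2 h were also higher at 24 h. Of the 34 falls that were higher at 2 h, 21 were still higher than baseline at 24 h, 11 were not called and 2 were lower. Without 4 h replicate 1 the rises higher at 24 h numbered 108, and the falls higher at 2 h numbered 21 without 4 h replicate 1 and 17 without 4 h replicate 2.

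**Figure D3:**
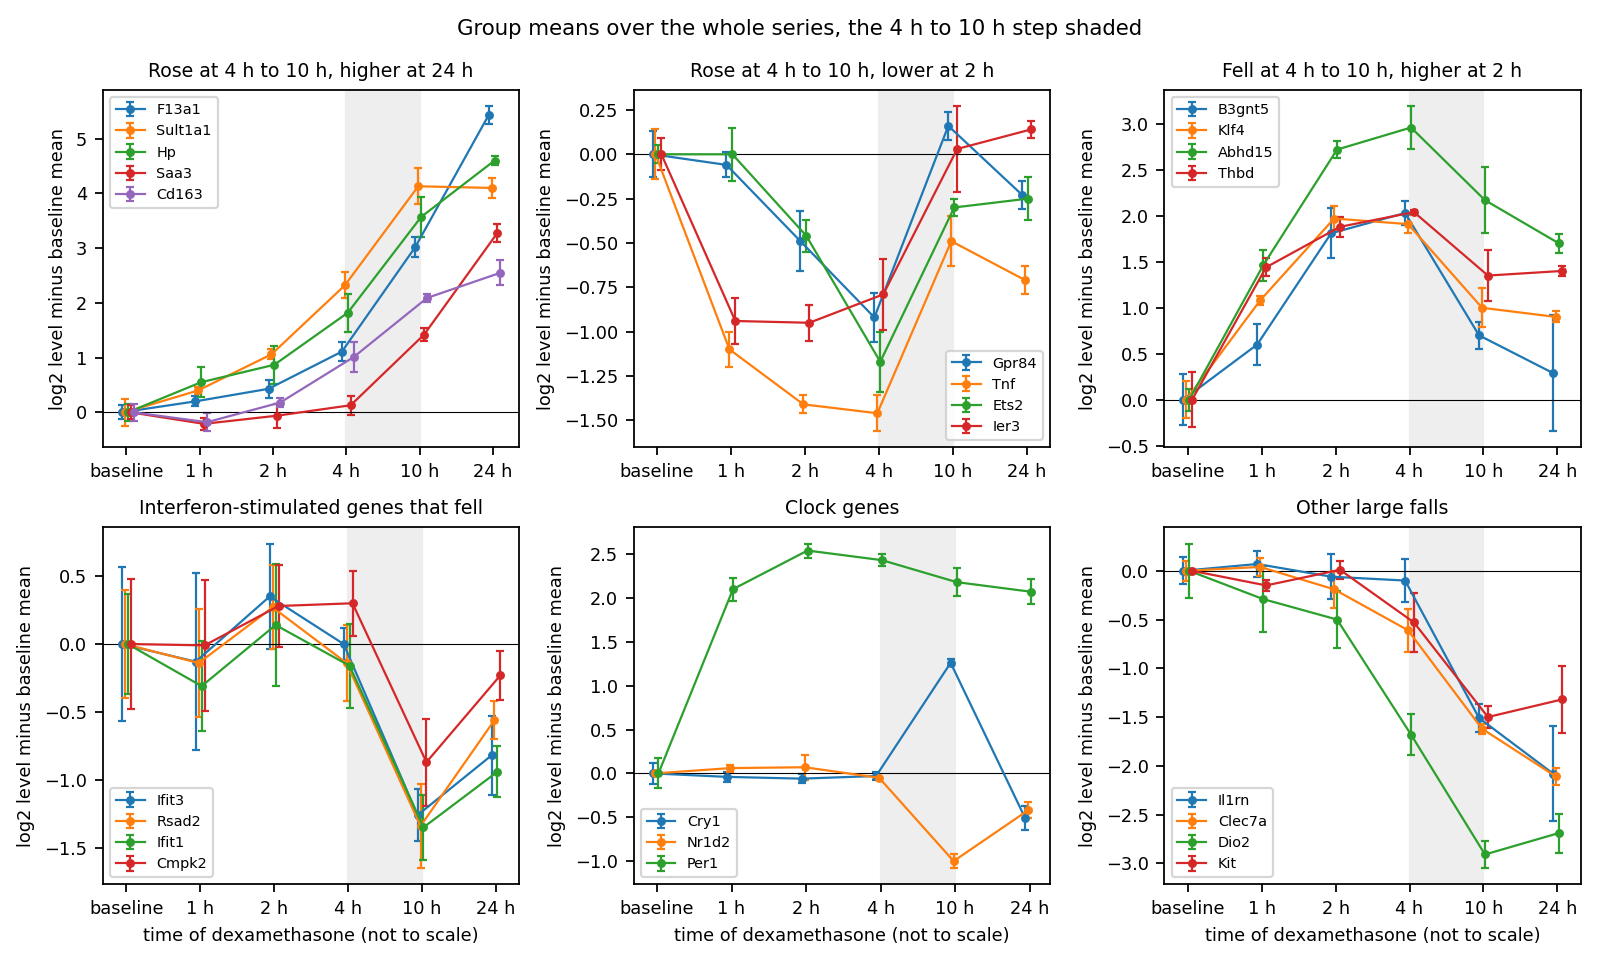
Group means of log2 level minus the baseline mean (y axis; bars are the SD of 3 arrays) for named genes over baseline, 1, 2, 4, 10 and 24 h (x axis, evenly spaced and not to scale), with the interval between 4 h and 10 h shaded. Tnf and Ier3 are below baseline at 2 h and higher at 10 h than at 4 h, Klf4 and Thbd are above baseline at 2 h and lower at 10 h than at 4 h, and Cry1 and Nr1d2 leave the baseline level at 10 h in opposite directions.

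The falls that had been early rises included B3gnt5, a glycosyltransferase that builds glycolipids, which had 39.8, 33.1 and 33.1 intensity units at 10 h, against 91.8, 80.3 and 95.3 at 4 h. Its change was -1.34 ± 0.22 (adjusted p = 0.000449), after a 2 h level 1.81 ± 0.22 log2 above baseline, and at 24 h it did not differ from baseline by the test (0.29 ± 0.22, adjusted p = 0.457). Klf4, a zinc finger transcription factor of macrophage polarization, had 662, 822 and 876 units at 10 h, against 1475, 1368 and 1572 at 4 h, a change of -0.91 ± 0.09 (adjusted p = 5.97e-07). Thbd, the anticoagulant receptor thrombomodulin, had 121, 172 and 166 units at 10 h, against 241, 243 and 247 at 4 h, a change of -0.69 ± 0.13 (adjusted p = 0.00176). Klf4 and Thbd remained above baseline at 24 h, by 0.90 ± 0.09 and 1.40 ± 0.13 log2, after 1.97 ± 0.09 and 1.88 ± 0.13 at 2 h. Abhd15, a hydrolase-fold gene, fell by 0.79 ± 0.15 (adjusted p = 0.00155), but its other probe set read 0.22 log2 and the mean of its probe sets did not pass. In each of the 4 genes the 10 h arrays lay below the 4 h arrays.

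The genes used to check the treatment did not pass between 10 h and 4 h. Fkbp5, a chaperone of the glucocorticoid receptor, had 2736, 2649 and 2843 intensity units at 10 h, against 2407, 2574 and 2506 at 4 h, a change of 0.14 ± 0.07 (adjusted p = 0.354). Tsc22d3, the glucocorticoid-induced leucine zipper, was at 0.11 ± 0.06 (adjusted p = 0.389), Per1 at -0.26 ± 0.10 (adjusted p = 0.16), Dusp1, a phosphatase of MAP kinases, at -0.16 ± 0.09 (adjusted p = 0.442) and Nr3c1, the receptor itself, at 0.16 ± 0.08 (adjusted p = 0.361) log2. Against baseline Fkbp5 stood 2.44 ± 0.07 log2 higher at 2 h and 3.54 ± 0.07 log2 higher at 24 h. Among receptor targets 2 of 30 tested genes rose and 4 fell, with a median of 0.00 log2; without 10 h replicate 1 or 3, without 4 h replicate 2 or without an intensity trend the falls numbered 2. Sult1a1 and Klf4, described above, were among them. Sgk1, a kinase that regulates ion transport, had 1168, 1242 and 1127 units at 10 h, against 1531, 1552 and 1629.6 at 4 h, a change of -0.41 ± 0.05 (adjusted p = 2e-05), and at 2 h it had been 1.00 ± 0.05 above baseline. Cdkn1c, an inhibitor of cyclin-dependent kinases, had 272, 499 and 297 units at 10 h, against 587, 769 and 538 at 4 h. Its change of -0.86 ± 0.21 (adjusted p = 0.0163) was not called without 10 h replicates 1 or 3 or 4 h replicate 2. Among 21 immediate-early factors 1 rose, Ier3, and 1 fell, Fos at -0.35 ± 0.10 (adjusted p = 0.0412), a call lost without any of 10 h replicates 1 and 3 and 4 h replicates 2 and 3.

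Clock genes gave 1 rise and 1 fall, whose adjusted p was the lowest in the comparison together with that of F13a1. The circadian clock runs on the activators CLOCK and BMAL1, which bind E-boxes and drive their own repressors, the Per and Cry genes, and the Rev-erb receptors. Cry1, a repressor, had 425, 406 and 424 intensity units at 10 h, against 175, 172 and 166 at 4 h, a change of 1.29 ± 0.08 (adjusted p = 9.45e-10). Nr1d2, which encodes Rev-erb beta, had 364, 376 and 338 units at 10 h, against 696, 694 and 688 at 4 h, a change of -0.95 ± 0.06 (adjusted p = 9.45e-10), and its other probe set read -0.74 log2. The replicates of both genes were close together, and the times did not overlap. Of 17 tested clock genes these were the only calls, and the list's median was 0.07 log2. At 2 h neither had passed against baseline (Cry1 -0.06 ± 0.08, Nr1d2 0.07 ± 0.06). At 24 h Cry1 was -0.51 ± 0.08 and Nr1d2 -0.42 ± 0.06 log2 against baseline, both passing. The labels give no clock time of the harvests, so clock phase and hours of dexamethasone cannot be told apart.

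The Cry1 window is printed for its E-box, CACGTG, in capitals at -60 from the start, on GRCm38.p6 at chr10:85185005-85185304, minus strand.
Cry1: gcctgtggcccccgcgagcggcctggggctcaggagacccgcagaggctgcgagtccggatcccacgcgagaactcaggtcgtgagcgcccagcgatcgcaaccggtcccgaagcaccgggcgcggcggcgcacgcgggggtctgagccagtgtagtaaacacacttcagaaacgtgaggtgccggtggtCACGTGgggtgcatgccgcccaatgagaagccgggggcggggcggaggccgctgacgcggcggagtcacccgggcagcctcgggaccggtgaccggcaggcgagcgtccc
The Nr1d2 window of the same length held no CACGTG, and 11.2% of all tested genes with a window held it. The D-box letters TTATGNAA, searched on both strands, were in neither window and in 2.55% of all tested genes with one. No match says only that these letters are not in the window.

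Genes of the MS4A family, which encode membrane proteins with 4 membrane-spanning segments, rose in 4 of 9 tested members and fell in 0, beside 2.35% risen among all tested genes, with a median of 0.42 log2. Leaving out each array in turn gave 4 or 5 rises. Ms4a4b had 93.6, 97.5 and 114 intensity units at 10 h, against 27.4, 43.4 and 32.8 at 4 h, a change of 1.58 ± 0.16 (adjusted p = 6.67e-07). Ms4a6c had 2224, 2260.3 and 2078 units at 10 h, against 1193, 1413 and 1314 at 4 h, a change of 0.75 ± 0.11 (adjusted p = 7.62e-05). Both were without overlap between the times. Ms4a6b rose by 0.65 ± 0.13 (adjusted p = 0.00259) and Ms4a6d by 0.42 ± 0.06 (adjusted p = 0.000147), and the other probe sets of these 3 Ms4a6 genes read 0.44, 0.93 and 0.44 log2. The 4 genes were already higher than baseline at 2 h, by 0.75 ± 0.16 for Ms4a4b, 0.89 ± 0.13 for Ms4a6b, 0.71 ± 0.11 for Ms4a6c and 0.24 ± 0.06 log2 for Ms4a6d. These genes are near relatives that lie together in the genome, and a probe set may respond to more than 1 of them.

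Scavenger receptors and other genes of alternative activation rose in 7 of 24 tested members and fell in 1, with a median of 0.12 log2. Among all tested genes 2.35% rose and 1.83% fell. Without 10 h replicate 1, without 4 h replicate 1 or without an intensity trend the rises of the list numbered 4. Cd163, the receptor for haptoglobin bound to haemoglobin, had 81.8, 74.6 and 82.0 intensity units at 10 h, against 34.5, 33.1 and 46.7 at 4 h, a change of 1.08 ± 0.15 (adjusted p = 6.69e-05). Lyve1, a hyaluronan receptor of tissue macrophages, had 64.9, 87.4 and 68.0 units at 10 h, against 41.3, 54.1 and 34.6 at 4 h, a change of 0.77 ± 0.16 (adjusted p = 0.00411). Marco, a scavenger receptor for bacteria and particles, had 354, 269.6 and 315 units at 10 h, against 212, 196 and 224 at 4 h, a change of 0.56 ± 0.12 (adjusted p = 0.00439). None of these 3 genes overlapped between the times, and at 24 h they stood 2.55 ± 0.15, 1.67 ± 0.16 and 2.01 ± 0.12 log2 above baseline. Chil3, a chitinase-like protein, rose by 0.66 ± 0.17 (adjusted p = 0.0278) with overlapping arrays and lost its call without 10 h replicates 1 or 3 or 4 h replicates 2 or 3. The fall in this list, Tgm2 at -0.51, and the rise of Stat3 at 0.30 log2 were named after their values were seen.

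Haem and iron genes showed 3 rises and 1 fall among 22 tested members. Beside Hp and Cd163, Slc40a1, the iron exporter ferroportin, had 236, 382 and 257 units at 10 h, against 144, 191 and 171 at 4 h, a change of 0.76 ± 0.14 (adjusted p = 0.00133), and its other probe set read 0.80 log2. Unlike Hp and Cd163, its mean at 10 h (8.15 log2) was still below that at baseline (8.78 log2), after 7.39 log2 at 4 h. At 24 h it was 8.69 log2. Ltf, the iron-binding lactoferrin and a neutrophil marker, had 20.2, 17.3 and 19.8 units at 10 h, against 43.3, 34.1 and 29.5 at 4 h, a change of -0.88 ± 0.22 (adjusted p = 0.0179) that was not called without 10 h replicate 2 or 4 h replicates 1 or 2. The 9 neutrophil markers on the array summed to 816 to 1105 units at 10 h and 913 to 1247 units at 4 h (exact permutation p = 0.8), with 7 of 9 above background and Elane and Cxcr2 not. The part of such cells in the fall of Ltf was not tested.

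Receptors of the Fc and C-type lectin families rose in 5 of 19 tested genes, and Clec7a fell. The median was 0.09 log2, and the rises numbered 2 without 10 h replicate 3 or 4 h replicate 1 and 0 without an intensity trend. Mrc1, the mannose receptor, had 3902, 4442 and 4649.5 units at 10 h, against 3268, 3417 and 3596 at 4 h, a change of 0.33 ± 0.08 (adjusted p = 0.0115) lost without those same arrays. Clec10a, a galactose-binding lectin, rose by 0.70 ± 0.18 (adjusted p = 0.0249) and the inhibitory Fc receptor gene Fcgr2b by 0.30 ± 0.08 (adjusted p = 0.0206). Clec10a lost its call without 10 h replicates 1 or 3 or 4 h replicates 1 or 2, and Fcgr2b without 10 h replicate 1 or 4 h replicates 1 or 2. Among 21 genes for the uptake of apoptotic cells 4 rose and 2 fell; the falls numbered 0 without 10 h replicate 2, without 4 h replicate 1, without an intensity trend or with the mean of probe sets. C1qa and C1qb, which encode chains of complement C1q, rose by 0.43 ± 0.08 (adjusted p = 0.00114) and 0.29 ± 0.05 (adjusted p = 0.00109), and Stab1, a receptor for phosphatidylserine, by 0.49 ± 0.10 (adjusted p = 0.00358). For C1qa the arrays read 1183, 1165 and 1067 units at 10 h, against 843, 857 and 839.5 at 4 h, and for Stab1 1101, 1214 and 1038 units at 10 h, against 769.5, 861 and 759 at 4 h, again without overlap. Itgb3, the integrin beta 3 subunit, had 87.1, 58.3 and 71.6 units at 10 h, against 152, 113 and 139 at 4 h, a change of -0.90 ± 0.21 (adjusted p = 0.0128). Its other probe set read -0.07 log2, and its call was lost without 10 h replicate 2 and without 4 h replicate 1.

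Complement and coagulation genes gave 3 rises, F13a1, C1qa and C1qb, and 2 falls, Thbd and Procr, among 20 tested members. Procr, the endothelial protein C receptor, acts with thrombomodulin in the protein C pathway. It had 150.4, 164 and 162 units at 10 h, against 231, 229.9 and 172 at 4 h, a change of -0.40 ± 0.10 (adjusted p = 0.0193) that was not called without 10 h replicate 1 or 4 h replicates 1 or 2. In the 2 genes the 10 h arrays lay below the 4 h arrays. At 24 h they differed in sign against baseline, with Thbd at 1.40 ± 0.13 and Procr at -1.25 ± 0.10 log2.

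The calls among mitotic genes were small rises. Of 33 tested members 3 rose and 0 fell, 32 of the 33 had a change above 0, beside 2.35% risen and 50.5% above 0 among all tested genes, and the median was 0.16 log2. Cenpe, a kinetochore motor, had 619, 589 and 664 intensity units at 10 h, against 456, 430.1 and 546 at 4 h, a change of 0.39 ± 0.08 (adjusted p = 0.00259), with its other probe set at 0.30 log2. Plk1, a mitotic kinase, rose by 0.34 ± 0.08 (adjusted p = 0.0209) and Prc1, a spindle midzone protein, by 0.25 ± 0.06 (adjusted p = 0.0224). Both of these calls were lost without any of 10 h replicates 1 and 3 and 4 h replicates 1 and 2, and over arrays left out in turn the rises numbered 1 to 7. They numbered 1 with only the 6 arrays fitted or without an intensity trend. The 3 genes had lower means at 4 h than at baseline. At baseline Cenpe was at 9.25, Plk1 at 8.08 and Prc1 at 9.52 log2. Their means were 8.89, 7.88 and 9.36 log2 at 4 h, and 9.28, 8.22 and 9.61 log2 at 10 h. Against baseline 0 of the 33 mitotic genes were called at 2 h or at 24 h. DNA replication genes gave 0 calls among 33, with a median of -0.01 log2 and Pcna, the polymerase clamp, at -0.08 ± 0.04 (adjusted p = 0.294). Among 23 cyclins D, cyclin-dependent kinase inhibitors and growth factors 2 rose and 3 fell. Mxd4, which competes with Myc for its partner Max, had 272, 313 and 324 units at 10 h, against 178, 174 and 199 at 4 h, a change of 0.72 ± 0.09 (adjusted p = 6.26e-06). Cdkn2c, an inhibitor of the kinases CDK4 and CDK6, rose by 0.38 ± 0.07 (adjusted p = 0.00114), and Igf1, a growth factor that macrophages secrete, was at -0.33 ± 0.06 (adjusted p = 0.000796) log2.

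Of 22 genes for ribosome biogenesis and translation 3 fell and 0 rose, with a median of -0.12 log2 and 17 of 22 below 0. Dkc1, the pseudouridine synthase dyskerin, had 224, 257 and 234 intensity units at 10 h, against 358, 384 and 352 at 4 h, a change of -0.62 ± 0.07 (adjusted p = 1.27e-06), and its other probe set read -0.60 log2. Eef1e1 was at -0.27 ± 0.07 (adjusted p = 0.0165) and Eif3b at -0.20 ± 0.06 (adjusted p = 0.0417) log2. Neither was called without 10 h replicates 1 or 3 or 4 h replicate 2, and Eif3b also not without 4 h replicate 1. With only the 6 arrays fitted or without an intensity trend, 1 fall of this list was left. Of 24 glycolysis and hypoxia genes 3 fell and 0 rose, with a median of -0.08 log2, and 0 fell with only the 6 arrays fitted or without an intensity trend. Tpi1, triosephosphate isomerase, had 3202, 3026 and 3040.5 units at 10 h, against 3566, 3532 and 3339 at 4 h, a change of -0.17 ± 0.04 (adjusted p = 0.006). Pdk1, a kinase that inhibits pyruvate dehydrogenase, was at -0.25 ± 0.06 (adjusted p = 0.0212) and Pfkp, a phosphofructokinase, at -0.21 ± 0.06 (adjusted p = 0.0484) log2. Pdk1 lost its call without 10 h replicate 1 or any 4 h array, and Pfkp without any 1 of the 6 arrays.

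Lipid genes moved both ways, with 2 rises and 3 falls among 23 tested, and 0 falls without an intensity trend. Lipa, the lysosomal acid lipase, had 3660.5, 3181 and 2738 intensity units at 10 h, against 4855, 4405 and 3869 at 4 h, a change of -0.46 ± 0.09 (adjusted p = 0.00424), and its 2 other probe sets read -0.41 and -0.39 log2. Pparg, the nuclear receptor of lipid metabolism, was at -0.35 ± 0.09 (adjusted p = 0.0251), and the scavenger receptor gene Msr1 at 0.33 ± 0.08 (adjusted p = 0.0251) log2. Pparg was not called without 10 h replicate 1 or 4 h replicates 1 or 2, and Msr1 not without 10 h replicates 1 or 2 or 4 h replicates 1 or 3. No gene passed among 19 of cholesterol synthesis (median -0.08 log2) or 17 of MHC class II and costimulation (median -0.15 log2). Their brightest members, Msmo1 and Ctss, were at 0.03 ± 0.11 and -0.02 ± 0.03 log2, with adjusted p of 0.951 and 0.842.

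Matrix proteases and adhesion genes included Mmp12, the macrophage elastase, which had 2293, 2232 and 1751 units at 10 h, against 3333, 3292 and 2824 at 4 h. Its change was -0.60 ± 0.12 (adjusted p = 0.00318), and at 24 h it was -2.38 ± 0.12 log2 against baseline. Mmp13, a collagenase, was at -0.52 ± 0.14 (adjusted p = 0.0411) and Adam8 at 0.27 ± 0.07 (adjusted p = 0.0251) log2; the first lost its call without any 10 h array or without 4 h replicates 1 or 2, and the second without 10 h replicates 1 or 2 or 4 h replicates 1 or 3. Itga4, the integrin alpha 4 subunit, was at -0.40 ± 0.09 (adjusted p = 0.00657) log2, with 3 other probe sets between -0.47 and -0.20. Itgam, the CD11b subunit and 1 of the 8 macrophage markers, rose by 0.37 ± 0.08 (adjusted p = 0.011), a call lost without replicate 3 of either time, and Itgb5 rose by 0.27 ± 0.06 (adjusted p = 0.00575). Among lineage factors Zeb2, a transcriptional repressor, had 1503, 1622 and 1476 units at 10 h, against 1198, 1216 and 1127 at 4 h. Its change of 0.38 ± 0.05 (adjusted p = 2.23e-05) was not called with the mean of its probe sets or with the probe set of largest variance. Zeb2 had been -0.43 ± 0.05 against baseline at 2 h and did not pass at 24 h (-0.07 ± 0.05).

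**Figure D4:**
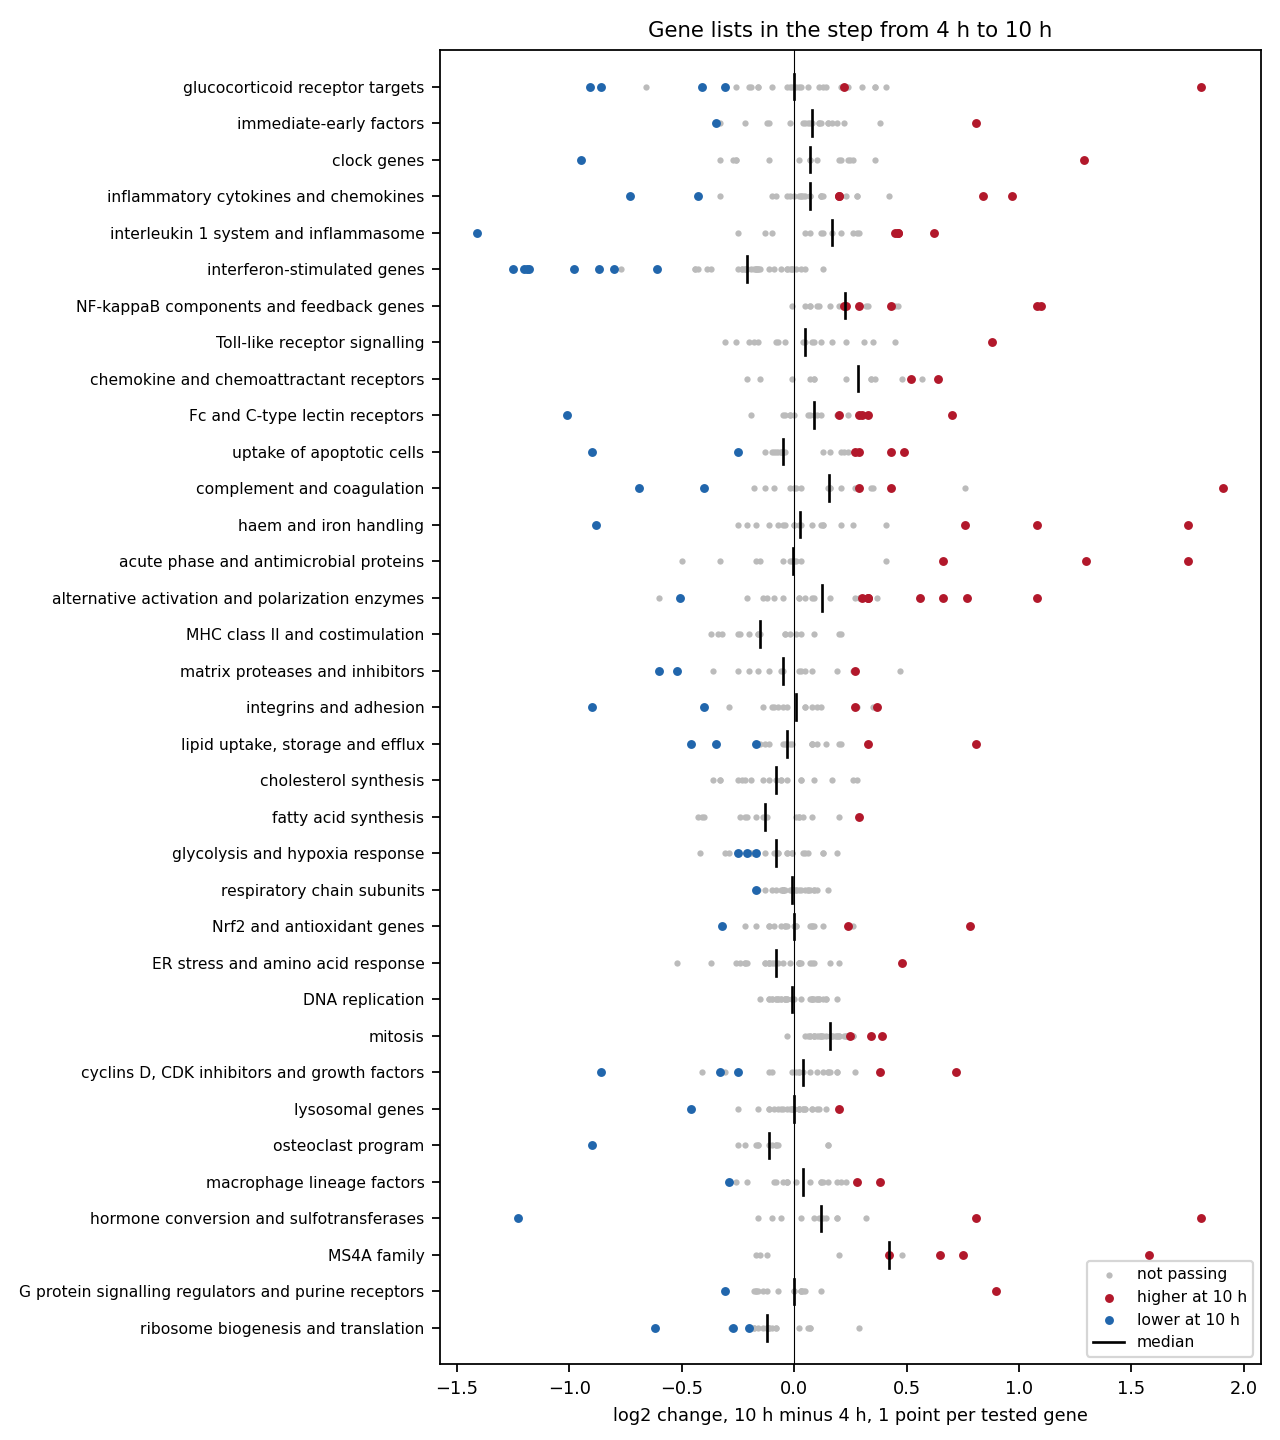
Log2 change at 10 h minus 4 h (x axis) of every tested member of 35 gene lists (rows), with red points for genes higher at 10 h, blue points for genes lower at 10 h, grey points for genes that did not pass and a black bar at each list's median. Interferon-stimulated genes have 8 falls, 0 rises and a median of -0.21, NF-kappaB genes 6 rises and a median of 0.23, and DNA replication, cholesterol synthesis and MHC class II genes have no calls in the test as reported.

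The remaining lists gave 1 to 3 calls each. Rgs2, which limits G protein signalling, was at -0.31 ± 0.08 (adjusted p = 0.0161) log2 and had been -0.92 ± 0.08 against baseline at 2 h, the 1 fall that was already lower then. Its call was lost without 10 h replicates 1 or 3 or 4 h replicates 1 or 2. Srxn1, which restores oxidized peroxiredoxins, was at -0.32 ± 0.08 (adjusted p = 0.0217) and Gsr, glutathione reductase, at 0.24 ± 0.06 (adjusted p = 0.0371) log2. Ern1, a sensor of endoplasmic reticulum stress, was at 0.48 ± 0.12 (adjusted p = 0.0191) and Elovl5, a fatty acid elongase, at 0.29 ± 0.08 (adjusted p = 0.0397) log2. Tfec was at 0.28 ± 0.07 (adjusted p = 0.0186), Irf5 at -0.29 ± 0.08 (adjusted p = 0.047), Ctsh, a lysosomal protease, at 0.20 ± 0.05 (adjusted p = 0.0209) and Cycs, cytochrome c, at -0.17 ± 0.05 (adjusted p = 0.0337) log2. All of these calls were lost without at least 1 of the 6 arrays. Gsr and Irf5 lost theirs without any 1 of them. For Srxn1 it was without 10 h replicates 2 or 3 or 4 h replicates 1 or 2. Ern1 lost its call without 10 h replicate 1 or 4 h replicate 3. Tfec did so without 10 h replicate 1 or 4 h replicates 1 or 3, and Ctsh without replicates 2 or 3 of either time. Elovl5 and Cycs lost theirs without 10 h replicates 1 or 3 or 4 h replicates 1 or 2. With the mean of all probe sets the calls of Rgs2, Srxn1, Gsr, Ern1, Elovl5, Irf5 and Cycs were also lost. The lowest change of Ern1 over the settings tried was 0.10 log2.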

How the data were processed

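Array intensities of the 6 groups were deposited by the authors as 1 linear value per probe set and array, made with RMA in affy per the submitters' processing notes, with no version given. RMA makes array distributions alike, so a shift shared by most genes would be removed. Log2 of the intensity was tested with limma 3.58.1 in R 4.3.3, fitted over all 18 arrays with a mean for each time and an eBayes prior that follows intensity, and p-values were adjusted by Benjamini-Hochberg over 13190 genes; each log2 change is given ± its standard error in that fit (3 arrays a group). The brightest of a gene's probe sets stood for it, if at least 3 arrays reached their 40th percentile. Left out were 211 probe sets whose values form an even series on 1 baseline array, which was decided after the values were known. Array number, not depth, limits precision. Gene symbols came from the platform annotation, and 15588 of 45141 probe sets had none. A check of the symbols against RefSeq changed 0 of them.

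The members, the gene lists and the tests were chosen with earlier results of these data known. Named genes were the 12 largest rises and falls without overlap between the times, up to 4 passing members per list or the brightest where none passed, 5 treatment check genes, and the 4 largest rises or falls in each of 4 classes set by the 2 h and 24 h arrays. In data simulated with the spread of the 13190 genes, the comparison of 10 h with 4 h recovered 24% of changes of 0.25 log2 units, 60% of 0.5 and 100% of 1 and 2. Those data had 50 changed genes of each size and noise that was independent between arrays, so recovery in the real arrays can differ. The background level is the 95th percentile of 43 control probe sets. Promoters were searched in RefSeq windows of 300 bases. Alternatives, in the closing section, covered the arrays fitted, the variance model, the probe set per gene, the filter, the normalization, the log scale and each array left out.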

Additional observations from a re-analysis of the deposited data

How the results depend on the processing

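With the replicate number as a block (replicate block), 945 genes changed, 509 higher and 436 lower; 216 falls were lower at 24 h, 58 falls higher at 2 h and 30 rises lower at 2 h. In the test as reported the rises lower at 2 h numbered 12. The residuals of same-numbered 10 h and 4 h arrays correlated at 0.0236, 0.182 and 0.162, and over all groups at 0.0236 to 0.29 in 45 pairs against -0.227 to 0.076 in 90 pairs of different number. Each of the 6 arrays correlated best with its own number in the other group, a hint from the data that the labels do not state, so the samples are taken to share only a number. With the block in a fit of only the 6 arrays, added after the data were seen, 608 genes changed. Mitotic genes then had 13 rises with the block in the fit of 18 arrays and 8 with it in the fit of 6, and complement and coagulation genes 7 and 6. Cholesterol synthesis had 1 rise and 4 falls in the first and 4 falls in the second, fatty acid synthesis 4 and 3 falls, glycolysis and hypoxia genes 5 and 4 falls, and MHC class II and DNA replication genes 1 fall and 1 rise in the first only. In the first, receptor targets had 7 falls, clock genes 2 rises and 2 falls, and chemokine receptors 4 rises and 1 fall. Of the genes that check the treatment, Per1 passed with the block in the fit of 18 arrays (-0.26 log2, adjusted p = 0.0336) and Dusp1 with it in the fit of 6 (-0.16 log2, adjusted p = 0.0396).

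Fitting only the 6 arrays without a block gave 344 genes, 188 higher and 156 lower. Without an intensity trend there were 321, 176 higher and 145 lower, with 106 rises higher and 85 falls lower at 24 h and 19 falls higher at 2 h. The probe set of largest variance gave 359 genes, 190 of them higher. Against a fold of 1.2 there were 60, 36 higher and 24 lower, with 24 rises higher and 11 falls lower at 24 h, 2 falls higher at 2 h and 3 rises lower at 2 h. Leaving out single arrays gave 316 to 518 genes, 169 to 292 higher and 143 to 226 lower, with 108 to 152 rises higher at 24 h and 17 to 31 falls higher at 2 h. The fits that changed the variance model or dropped arrays have fewer samples or another spread estimate by construction; which of these moved the counts was not tested. The other probe set choices, filters, quantile normalization, the added offset, the fit of 15 arrays and the even series kept left the counts within 1.5 times, at 407 to 583 genes. Of the named genes, signs turned only among those that did not pass: Nr3c1 was at -0.07 and Tsc22d3 at -0.12 with the probe set of largest variance, Nr3c1 at -0.03 with the mean of probe sets, Ctss at 0.03 with quantile normalization, and Msmo1 at -0.11 to 0.11 with single arrays left out. The cause of these was not tested.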

Other observations

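Some genes outside the lists moved as clearly as those within them; they were picked after their values were seen. Among the rises, Mgst2, a microsomal glutathione transferase, had 261, 192 and 214 intensity units at 10 h, against 131, 107 and 96.8 at 4 h, a change of 1.00 ± 0.13 log2 (limma adjusted p = 2.15e-05). Eps8, an actin-regulating adaptor, had 737, 727 and 765 units at 10 h, against 445, 411 and 424 at 4 h, a change of 0.80 ± 0.06 (adjusted p = 1.06e-08). Deptor, which binds and inhibits mTOR, rose by 0.79 ± 0.11 (adjusted p = 5.89e-05), and the adaptor Lcp2, known as SLP-76, by 0.71 ± 0.07 (adjusted p = 2.36e-07). Ang and Rnase4, 2 secreted ribonuclease genes that share their upstream exons in mouse, rose by 0.74 ± 0.09 and 0.65 ± 0.06. Tgfbi, a secreted matrix protein, had 4739, 4786 and 5181 units at 10 h, against 3102, 3023 and 3627 at 4 h, a change of 0.60 ± 0.06 (adjusted p = 4.41e-07).

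Among the falls, Cd72, a receptor with an inhibitory motif, had 451, 556 and 511 units at 10 h, against 908, 1070 and 931 at 4 h, a change of -0.94 ± 0.08 (adjusted p = 4.39e-08). Stap1, an adaptor protein, was at -0.84 ± 0.10, and Slc15a3, a lysosomal transporter of peptides and histidine, at -0.73 ± 0.08 log2. Cd300ld, of the CD300 receptor family, was at -0.57 ± 0.05 log2. Kitl, the ligand of the receptor Kit, had 421, 418 and 399 units at 10 h, against 629, 636 and 600.3 at 4 h, a change of -0.59 ± 0.07 (adjusted p = 4.61e-06). The 10 h arrays of each of these genes lay on one side of the 4 h arrays. Each passed under all 18 alternatives other than the test against a fold of 1.2, except Kitl, which passed under 17.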
